A study of Mus musculus with 74 samples.

Results

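Macrophages of the sciatic nerve at the end stage of SOD1-G93A disease were compared with the nerve macrophages of age-matched mice whose RNA libraries are described as WT. The comparison holds 8 of the 74 libraries of the series, chosen by their sample descriptions: 4 of G93A mice at end stage (mean age 169.4 days) and 4 of mice at the age that corresponds to end stage, for which the labels give no mean age. SOD1-G93A mice carry a mutant human SOD1 transgene and develop a paralysing motor neuron disease, a model of amyotrophic lateral sclerosis. All 8 mice were on the C57BL/6J background, were not grafted with bone marrow and were labelled female. Each library came from the pooled left and right sciatic nerves of 1 perfused mouse. The cells were freed without enzymes in the cold, cleared of myelin on Percoll and captured with magnetic beads against CD11b, an integrin chain of macrophages, monocytes and neutrophils. Ages and groups below are those of the labels, and n is 4 mice per group. Nerve libraries of younger G93A mice are given beside them, from pre-symptomatic (50.8 days), onset (105 days) and early symptomatic mice (152.6 days). The end-stage microglia used for comparison came from G93A mice of 169.4 days, WT mice of 165.4 days and B6 mice of 165.6 days.

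The labels of the control group conflict. Title, source and strain name those 4 libraries mutant hSOD1-G93A, but the description and the column name give WT. The group follows the description and is written "described as WT". What WT stands for in them is not spelled out, though elsewhere in the series it means a wildtype human SOD1 transgene. Mouse Sod1, superoxide dismutase, gave no check on the labels, since the human transgene was not analysed here. It was at 19.6, 13.1, 16.9 and 44.9 FPKM in G93A replicates 1 to 4 and at 21.1, 12.8, 19.8 and 16.6 FPKM in the libraries described as WT. FPKM counts fragments scaled by transcript length and by the library's mapped fragments.

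A second conflict concerns sex. Eif2s3y, a Y-linked translation factor gene, was at 54.9 FPKM in G93A replicate 3 and at 63.7 FPKM in described-as-WT replicate 2, and at 0 in the other 6 libraries. Ddx3y, a Y-linked RNA helicase gene, was at 14.7 and 8.0 FPKM in the same pair of libraries and at 0 in the rest. Xist, the X-inactivation RNA, was at 0.19 FPKM or less in all 8 libraries, so it separated none of them. It was at 4.04 FPKM or less in the non-grafted microglia. There a further library, G93A end-stage replicate 3, held Eif2s3y at 35.9 FPKM. Its Xist was at 0.02 FPKM, against 1.23 to 2.28 FPKM in the others of its group. The medians of the gene lists described below are therefore given with and without the 2 nerve libraries, 1 of each group. The count of calls against microglia is given with and without all 3 libraries.

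The preparations were rich in neutrophil RNA. S100a8, a chain of the neutrophil alarmin calprotectin, was between 44054 and 80759.6 FPKM in G93A and between 53798 and 69329 FPKM in the libraries described as WT. The 12 neutrophil markers took between 8.98% and 24.3% of a G93A library's FPKM and between 17.03% and 23.6% of a described-as-WT library's. Csf1r, the receptor that macrophages need to survive, was at 128.6, 141, 185 and 74.2 FPKM in G93A and at 333, 91.6, 169 and 147 FPKM in the libraries described as WT. In such bulk samples, fewer cells of a type and less RNA per cell cannot be told apart. G93A replicate 4 stood apart, with hemoglobin genes at 24.9% of its FPKM against 1.17% to 7.15% in the other 3 and 0.757% to 8.29% in the libraries described as WT. Hba-a1, an alpha globin chain, reached 115143 FPKM there against 2479 to 30389 FPKM in the group described as WT. Described-as-WT replicate 1 had the highest Csf1r of the 8 libraries. Pearson correlations of log2(FPKM + 1) ran from 0.801 to 0.8796 within G93A, from 0.776 to 0.876 within the group described as WT, and from 0.756 to 0.881 between the groups.

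**Figure D1:**
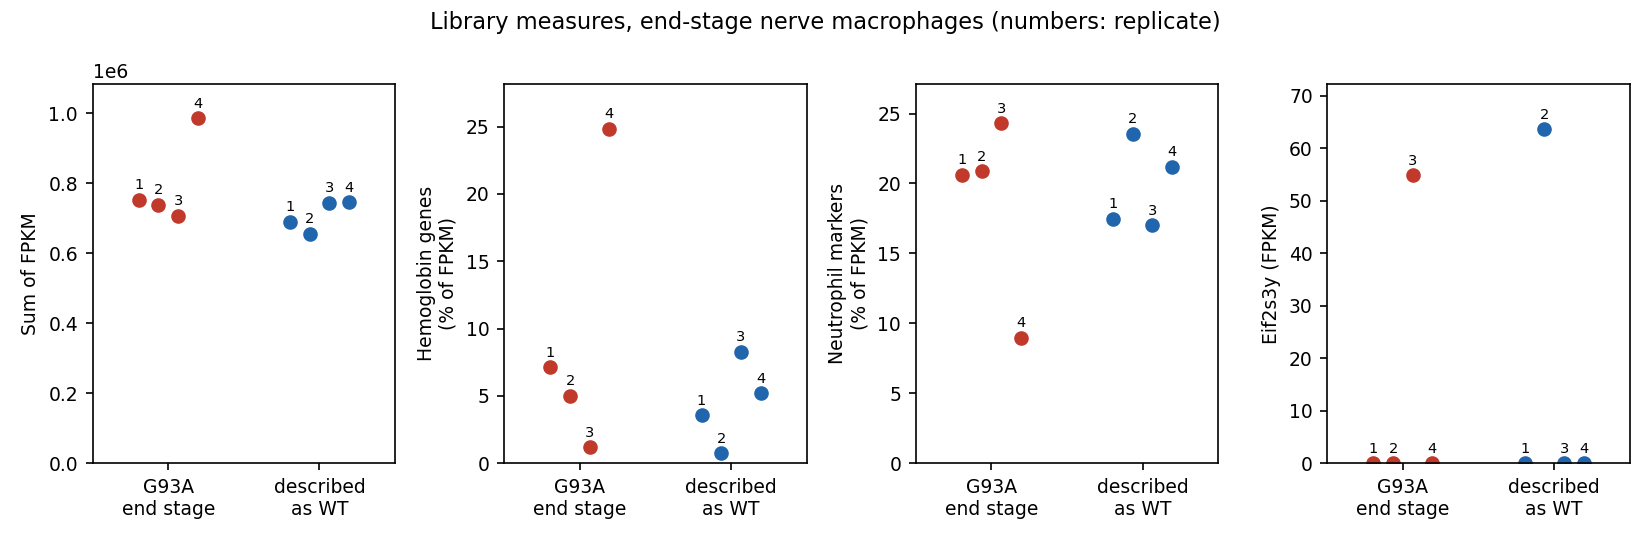
Sum of FPKM, share of FPKM from hemoglobin genes, share from neutrophil markers and level of the Y-linked gene Eif2s3y in each library, with the replicate number beside each point. G93A replicate 4 has the highest hemoglobin share (24.9%) and the lowest neutrophil share (8.98%), and Eif2s3y is above 0 in G93A replicate 3 and described-as-WT replicate 2.

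Macrophages live in the nerve's outer sheath, the epineurium, and among its axons, in the endoneurium. Epineurial cells are known for lectins, scavenger receptors and MHC class II, and endoneurial cells share genes with microglia. When axons degenerate, as in motor neuron disease, blood monocytes enter and debris is taken up. Type I interferons act on most cells through the receptor IFNAR and transcription factors such as STAT2 and IRF9, which bind interferon-stimulated response elements and switch on antiviral genes. IRF7 is itself such a gene and raises interferon output further.

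No gene passed the test at an adjusted p under 0.05 (0 of 10260 genes, 0%). The test was limma on log2(FPKM + 1), with Benjamini-Hochberg adjustment over all genes tested, and the smallest adjusted p was 0.116. At an unadjusted p under 0.05 there were 662 genes (6.45%), of which 248 were higher (2.42%) and 414 lower (4.04%) in G93A. The libraries of the groups did not overlap in 367 genes (3.58%), with all 4 of G93A above all 4 described as WT in 1.31% of genes and below in 2.27%. Across genes the median difference was -0.02 on the log2 scale, and its median SE was 0.57, which gives a 95% interval of plus or minus 1.20. That interval is not adjusted for the number of genes, and a smaller difference could not be resolved for a typical gene even so. Passing after adjustment needed more. Cd48 at -1.60 ± 0.29 and Il1r2 at 1.38 ± 0.25 still had an adjusted p of 0.116. The absence of calls therefore does not exclude differences above 1.20. Other settings called 0 genes, except that 1 gene was called with no filter on low values, 8 with terms for neutrophil and Schwann cell scores and 3 with library quality weights. Since nothing passed, the genes below are those of each direction with the smallest unadjusted p among genes of at least 5 FPKM whose libraries did not overlap, and none of them passed.

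Higher values in G93A were led by Il1r2, the decoy receptor that binds interleukin-1 without signalling, which neutrophils express strongly (mm10 chr1:40084714-40125230, plus strand). Its levels were 324, 278, 317 and 780.4 FPKM in G93A and 136.75, 179, 159.6 and 123.18 FPKM in the libraries described as WT. Every G93A library was above every control, and replicate 4 was far above the other 3. The log2 difference was 1.38 ± 0.25 (SE, adjusted p = 0.116). With terms for neutrophil and Schwann cell scores its adjusted p was 0.0112, and with library quality weights it was 0.0390. Il1r2 is itself a marker averaged in that neutrophil score. That fit therefore cannot show whether its difference is apart from neutrophil content. In the 10 libraries of younger G93A mice, from the pre-symptomatic, onset and early symptomatic stages, Il1r2 lay between 86.2 and 165 FPKM, below all 4 end-stage values. Of all 10260 genes tested, 30 had all 4 end-stage G93A values outside the range of these 10 libraries. Of the 367 genes whose end-stage groups did not overlap, 20 did. Both comparisons use the same 4 end-stage values. The younger libraries therefore give no separate support, for Il1r2 or for the genes below. The Il1r2 span also overlaps Gm16894 on the other strand, and the sources used here do not give whether counting used strand.

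The chitinase-like gene Chil4 and the secreted protein gene Crispld2 came next by p. Chil3, also chitinase-like, is given beside them, though it had the largest p of the 10 genes of this direction. Chil4 was at 142, 119.5, 184 and 148 FPKM in G93A and at 66.4, 51.4, 63.5 and 68.4 FPKM in the libraries described as WT. Chil3, made by neutrophil precursors, monocytes and activated macrophages, was at 7455, 6654, 12014 and 9338 FPKM in G93A and at 3469, 4025, 5328 and 5424 FPKM in the controls. Their log2 differences were 1.23 ± 0.26 (adjusted p = 0.151) and 0.95 ± 0.27 (adjusted p = 0.430). The Chil3 and Chil4 transcripts are close copies, so reads may have been split between them. Crispld2, whose product binds bacterial lipopolysaccharide, was at log2(FPKM + 1) levels of 7.14, 6.86, 7.27 and 6.90 in G93A and of 6.24, 6.40, 5.39 and 5.45 in the controls. The group means were 131.6 and 60.3 FPKM. Its log2 difference was 1.17 ± 0.27 (adjusted p = 0.320, and 0.0435 with library quality weights). Chil4 and Crispld2 at end stage, like Il1r2, exceeded all 10 younger G93A libraries, which reached 98.2 and 82.5 FPKM. Beside these, the 12 neutrophil markers, Il1r2 among them, had a median difference of 0.03. The 12 granule genes of immature neutrophils had one of 0.39, with 11 of the 12 above 0 and Chil3 among them. Camp, an antimicrobial granule peptide, was at 12247 to 21401 FPKM in G93A and 12120 to 15616 FPKM in the controls, which overlap. With terms for neutrophil and Schwann cell scores, none of Chil4, Chil3 and Crispld2 passed. Beyond that fit, the part of neutrophil content in these 3 genes was not tested.

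The other 6 genes of the higher direction have diverse roles. Mrpl2, a protein of the mitochondrial ribosome, was at 30.5, 22.6, 24.3 and 36.7 FPKM in G93A and at 6.62, 6.25, 20.7 and 9.37 FPKM in the controls (1.46 ± 0.35, adjusted p = 0.320). Cbr4, a mitochondrial reductase of fatty acid synthesis, was at 7.26, 14.6, 4.22 and 5.57 FPKM in G93A. The controls listed it at 0, 0, 0.01 and 2.33 FPKM (2.59 ± 0.68, adjusted p = 0.430). In the 10 younger G93A libraries Mrpl2 was at 11.3 to 35.3 FPKM and Cbr4 at 0 to 9.99 FPKM, ranges that overlap both end-stage groups. Rabac1, a Rab-binding protein of the Golgi, was at 107.94 to 133.98 FPKM in G93A and at 47.0 to 83.6 FPKM in the controls. Taf1d, a subunit of the RNA polymerase I selectivity factor, was at 6.99 to 14.96 against 0.62 to 4.53 FPKM, and its span overlaps 4931406C07Rik and Cep295 on the other strand. The genes 2310039H08Rik and BC117090 were at 11.0 to 18.1 against 3.85 to 5.45 FPKM and at 2.25 to 10.8 against 0.40 to 0.82 FPKM.

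**Figure D2:**
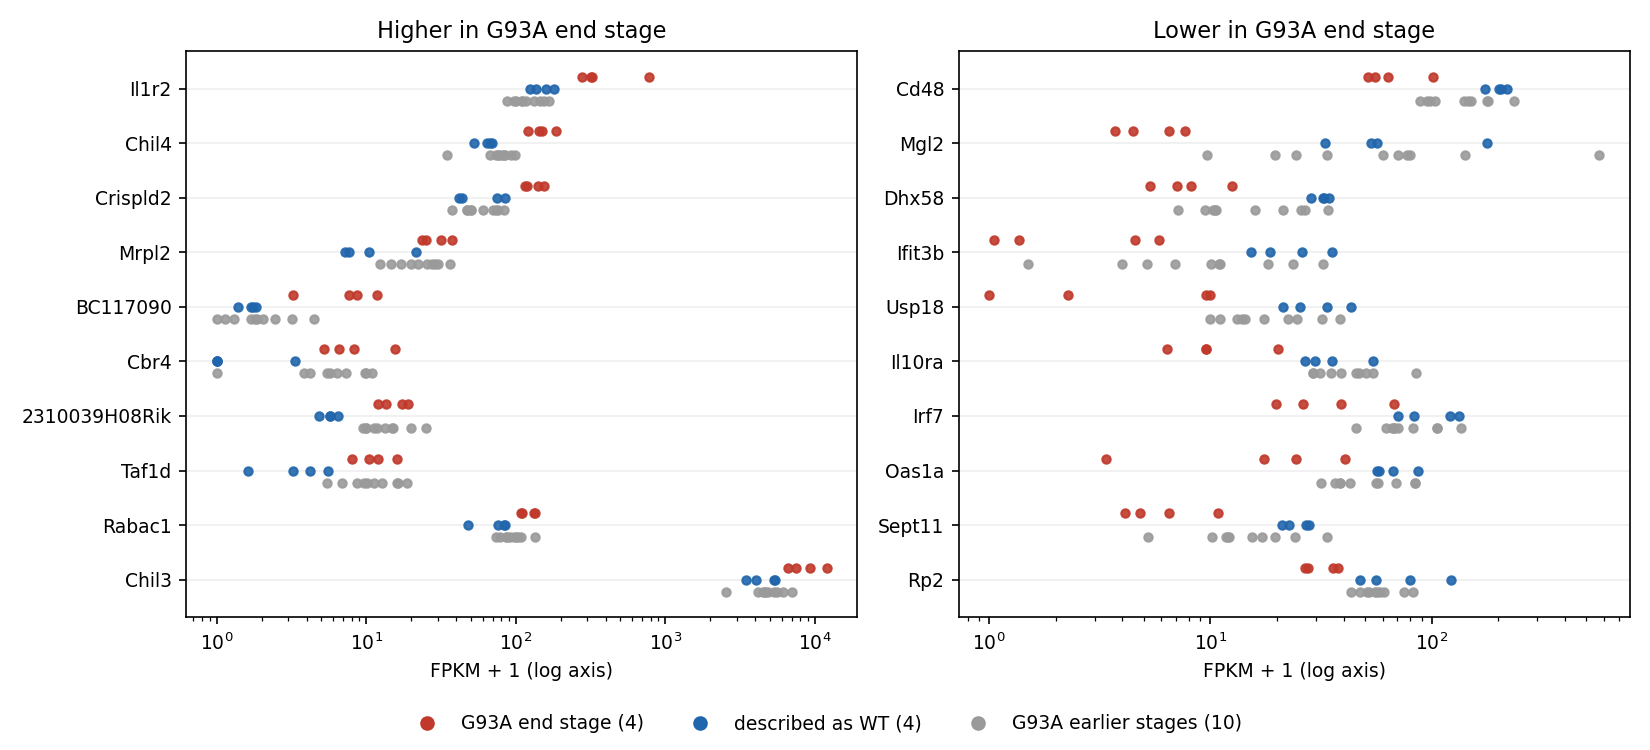
FPKM + 1 on a log axis for the 10 genes of each direction with the smallest unadjusted p among non-overlapping genes, 1 point per library. Red points (G93A end stage) and blue points (described as WT) do not overlap in any row because that was a condition for choosing the genes, and grey points are the 10 libraries of younger G93A mice.

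Cd48 was the gene with the smallest p of all (chr1:171681992-171705257, plus strand). It encodes a membrane-anchored ligand of the immune receptors CD2 and CD244. Its levels were 100.4, 54.7, 50.5 and 62.4 FPKM in G93A and 204, 200.6, 173 and 218 FPKM in the libraries described as WT. The groups did not overlap, and the log2 difference was -1.60 ± 0.29 (adjusted p = 0.116). With neutrophil and Schwann cell terms the adjusted p was 0.0321, and with quality weights 0.0390. Il10ra, the ligand-binding chain of the receptor for the anti-inflammatory cytokine interleukin-10, was at 19.2, 8.50, 8.58 and 5.39 FPKM in G93A and at 53.3, 25.8, 28.8 and 34.4 FPKM in the controls. Its log2 difference was -1.76 ± 0.37 (adjusted p = 0.151), and the 10 younger G93A libraries, at 27.95 to 84.1 FPKM, were all above end stage. Sept11, a septin of the cortical cytoskeleton, was at 3.11 to 9.78 FPKM against 20.2 to 27.01 FPKM. Rp2, which activates the GTPase activity of ARL3 in ciliary traffic, was at 25.9 to 36.7 against 46.5 to 121.45 FPKM. Neither passed (adjusted p = 0.320 for each).

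The type I interferon response genes all had lower values in G93A. Of 24 genes on the list 22 were tested, and all 22 had a negative difference, where 51.7% of all genes tested did. Their median log2 difference was -1.35, beside -0.02 for all genes. Members of a list can move together within a library, so they are not independent, and the replicates are the 4 mice per group. The same holds for the lists below. None passed the test (smallest adjusted p 0.151), 13 had an unadjusted p under 0.05, where the background was 4.04% lower, and in 7 the libraries did not overlap, where it was 2.27% lower. Leaving out 1 library at a time kept at least 21 of 22 below 0, with medians from -1.91 to -1.11. Without both libraries that hold Y-linked transcripts, 22 of 22 were lower, the median was -1.70 and 16 had an unadjusted p under 0.05. Without the hemoglobin-rich G93A replicate 4, 22 of 22 were lower, the median was -1.11 and 11 had an unadjusted p under 0.05.

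Usp18, the protease that removes ISG15 from proteins and shuts down the interferon receptor, was at 8.50, 0, 8.95 and 1.27 FPKM in G93A and at 24.4, 20.4, 42.1 and 32.5 FPKM in the libraries described as WT (-2.96 ± 0.62, adjusted p = 0.151). Irf7, the amplifier of interferon production, was at 66.6, 25.1, 38 and 18.7 FPKM in G93A and at 119.6, 81.9, 132.28 and 69.4 FPKM in the controls (-1.53 ± 0.35, adjusted p = 0.308). G93A replicate 1 was the highest of its group for Irf7 and came close to the lowest control, and the span of Irf7 overlaps Phrf1 on the other strand. Oas1a, which makes the second messenger that turns on RNase L, was at 39.4, 16.5, 23.3 and 2.37 FPKM in G93A and at 65.8, 55.4, 57.0 and 85.4 FPKM in the controls (-2.09 ± 0.49, adjusted p = 0.320, and 0.0428 with neutrophil and Schwann cell terms). The transcription factor gene Stat2 showed the same order of groups, at 7.74, 10.4, 10.9 and 2.72 FPKM against 17.8, 12.8, 22.3 and 18.1 FPKM (-1.18 ± 0.39). Its groups did not overlap, and its adjusted p was 0.571. The groups of the RNA sensor Ddx58 and the synthetase Oas3 did not overlap either, at 3.27 to 12.5 against 18.1 to 27.2 FPKM and at 0.35 to 12.5 against 13.7 to 28.5 FPKM.

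A further pair of the named genes belongs to the same response without being on the list. Dhx58, an RNA sensor related to Ddx58, was at 6.05, 4.33, 11.5 and 7.14 FPKM in G93A and at 31.4, 31.5, 33.3 and 27.6 FPKM in the controls (-2.02 ± 0.41, adjusted p = 0.151). Ifit3b, a near copy of the antiviral Ifit3, was at 3.55, 0.36, 4.84 and 0.05 FPKM in G93A and at 25.1, 17.5, 34.6 and 14.2 FPKM in the controls (-3.19 ± 0.66, adjusted p = 0.151). The span of Ifit3b also overlaps Ifit1bl1, and reads of Ifit3 and Ifit3b may have been split between the copies. Ifit3 itself overlapped between the groups, at 1.03 to 14.97 against 10.0 to 82.4 FPKM. The list members with the smallest differences were Rsad2, an antiviral enzyme, at 13.6 to 48.8 against 14.8 to 47.98 FPKM, and Cmpk2, a mitochondrial nucleotide kinase, at 7.04 to 12.7 against 8.22 to 19.3 FPKM. Within G93A, replicate 4 was lowest for Oas1a, Stat2, Oas3 and Ifit3b, and replicate 2 for Usp18.

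The mean of log2(FPKM + 1) over the 22 interferon genes was between 2.58 and 4.42 in G93A end-stage libraries and between 4.24 and 5.33 in those described as WT. These ranges overlap, with G93A replicate 1 at 4.42 above described-as-WT replicate 2 at 4.24. The mean was between 4.52 and 4.87 in pre-symptomatic, 4.19 and 4.81 in onset and 4.12 and 4.79 in early symptomatic G93A libraries. The ranges of the 3 younger groups overlapped that of the libraries described as WT, and their lowest values overlapped or came near the highest of end stage. Of the 22 genes, 0 had all end-stage G93A libraries outside the range of the 10 younger ones. That count does not set the list apart, since only 30 of all 10260 genes tested had this.

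Promoters are shown for the 3 members whose libraries did not overlap and whose window, the 250 bases before the RefSeq start (GRCm38.p6), holds the core of the interferon-stimulated response element. The core was searched as GAAA, any 2 bases and GAAA, on either strand. Capitals mark the matches, and on the strand shown a match to the opposite strand reads TTTC, any 2 bases and TTTC. Each is given 5′ to 3′ along its gene.
Oas1a, chr5:120907526-120907775, minus strand: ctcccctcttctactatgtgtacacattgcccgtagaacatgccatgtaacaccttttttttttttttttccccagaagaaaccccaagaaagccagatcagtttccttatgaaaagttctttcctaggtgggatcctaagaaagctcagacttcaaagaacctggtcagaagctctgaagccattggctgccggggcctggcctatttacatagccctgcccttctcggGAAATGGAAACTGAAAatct
Oas3, chr5:120777660-120777909, minus strand: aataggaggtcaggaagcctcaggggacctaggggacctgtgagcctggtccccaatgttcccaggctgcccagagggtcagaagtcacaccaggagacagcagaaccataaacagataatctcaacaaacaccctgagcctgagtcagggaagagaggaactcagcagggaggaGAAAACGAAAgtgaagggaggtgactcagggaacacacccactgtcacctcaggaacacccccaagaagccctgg
Stat2, chr10:128270248-128270497, plus strand: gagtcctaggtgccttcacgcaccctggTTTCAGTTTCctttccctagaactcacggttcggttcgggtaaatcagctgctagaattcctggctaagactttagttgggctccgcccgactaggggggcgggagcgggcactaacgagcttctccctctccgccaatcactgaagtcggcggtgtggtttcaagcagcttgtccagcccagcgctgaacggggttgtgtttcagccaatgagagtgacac
Oas1a holds 2 overlapping matches close to its start, Oas3 1 and Stat2 1 on the opposite strand. Of the 22 list members tested, 16 had a window in the RefSeq table, and 8 of the 16 (50%) held a match. Of 7823 tested genes with a window, 274 (3.50%) held one. Among the genes whose libraries did not overlap, the share was 6.04% of 182 that were lower and 6.12% of 98 that were higher. The windows of Irf7 and Ddx58, whose libraries did not overlap, held none. Those of Ifit3 and Rsad2, whose groups overlapped, did hold matches, so a match did not go with separation of the groups. A match describes letters in a window and no binding.

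**Figure D3:**
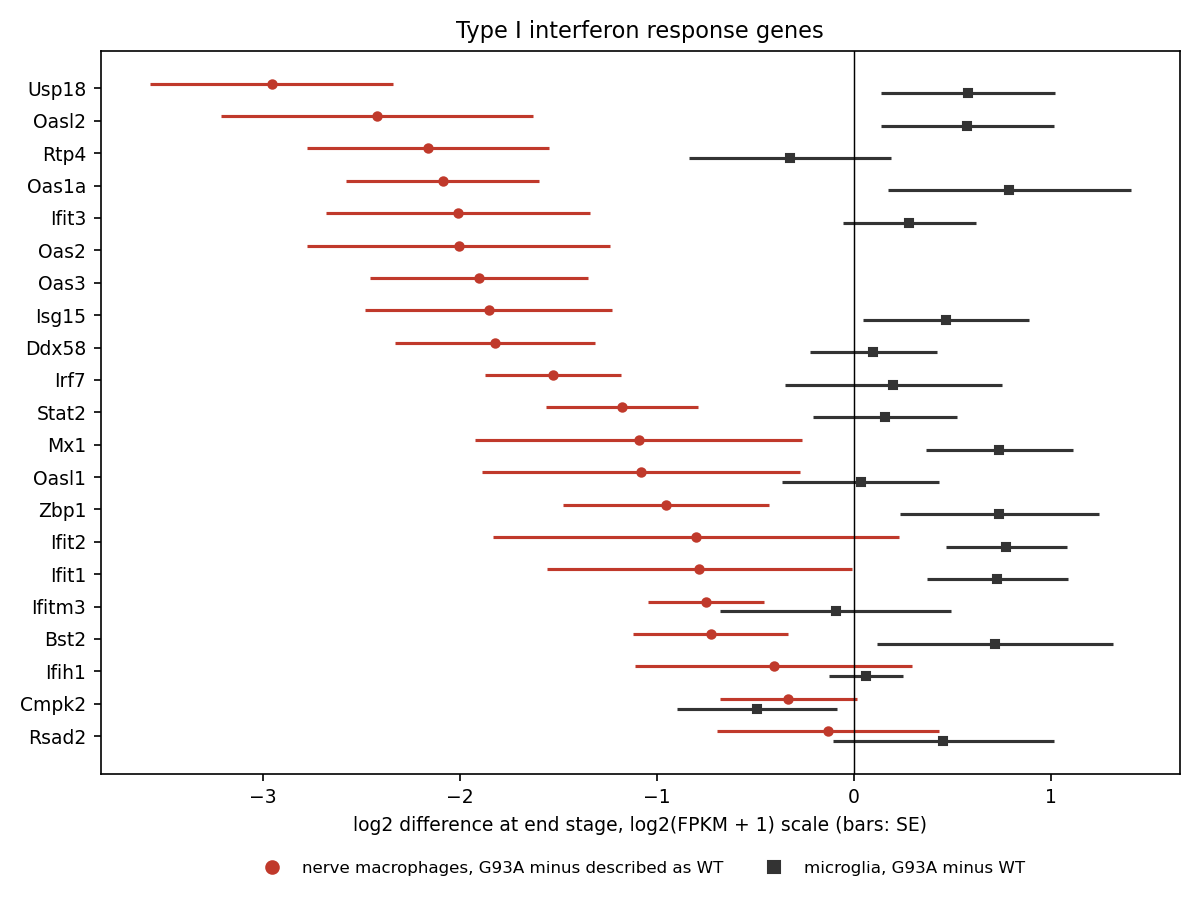
Log2 difference with its SE for 21 of the 22 interferon genes tested, in nerve macrophages (red circles, G93A end stage minus described as WT) and in spinal cord microglia (dark squares, G93A end stage minus WT, drawn for the members tested there). All 21 red points lie below 0, from -2.96 for Usp18 to -0.13 for Rsad2, and the microglial median over the list is 0.33.

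Genes of epineurial and resident nerve macrophages were mostly lower in G93A. All 15 on the list were tested, 12 were lower and 3 higher, and the median log2 difference was -0.99. None passed, and in 3 (Mgl2, Retnla and Cbr2) the libraries did not overlap, where the background was 2.27% lower. Mgl2, a lectin for galactose-type sugars also called CD301b, was at 2.70, 3.48, 5.52 and 6.69 FPKM in G93A and at 177, 32.03, 55.5 and 52.1 FPKM in the libraries described as WT (chr11:70130357-70137548, plus strand). Its difference was -3.59 ± 0.73 (adjusted p = 0.151, and 0.0112 with neutrophil and Schwann cell terms). All 10 younger G93A libraries, at 8.67 to 571 FPKM, were above the 4 of end stage.

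Retnla, a secreted protein of macrophages activated by interleukin-4, had the largest difference of the named genes. It was at 20.3, 8.78, 6.35 and 471 FPKM in G93A and at 6193, 664, 1158 and 1726 FPKM in the controls. The 3 lower G93A libraries were far below replicate 4, which was itself below every control, and the difference was -5.86 ± 1.66 (adjusted p = 0.430). Younger G93A libraries spanned 6.73 to 14374 FPKM, so the low level was also seen in a pre-symptomatic library. Mrc1, the mannose receptor of resident macrophages, was at 2.07, 2.21, 0.23 and 7.97 FPKM in G93A and at 22.8, 23.7, 6.59 and 0.01 FPKM in the controls, which overlap (-1.34 ± 0.90, adjusted p = 0.828). Fcna, a lectin of resident macrophages, went the other way, at 9.20 to 226 FPKM in G93A and 0 to 17.3 FPKM in the controls. Leaving out 1 library at a time gave medians from -1.11 to -0.43, the last without described-as-WT replicate 1, the library richest in Csf1r, and without both libraries with Y-linked transcripts it was -0.48. With neutrophil and Schwann cell terms the median was -0.32. With a term for sample numbers of 100 or more, which 3 of the 4 controls and 0 of the 4 G93A end-stage libraries carry, it was -1.87. Beside these values, the fibroblast markers of the same sheath were lower too (below), and their part in the difference was not tested.

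**Figure D4:**
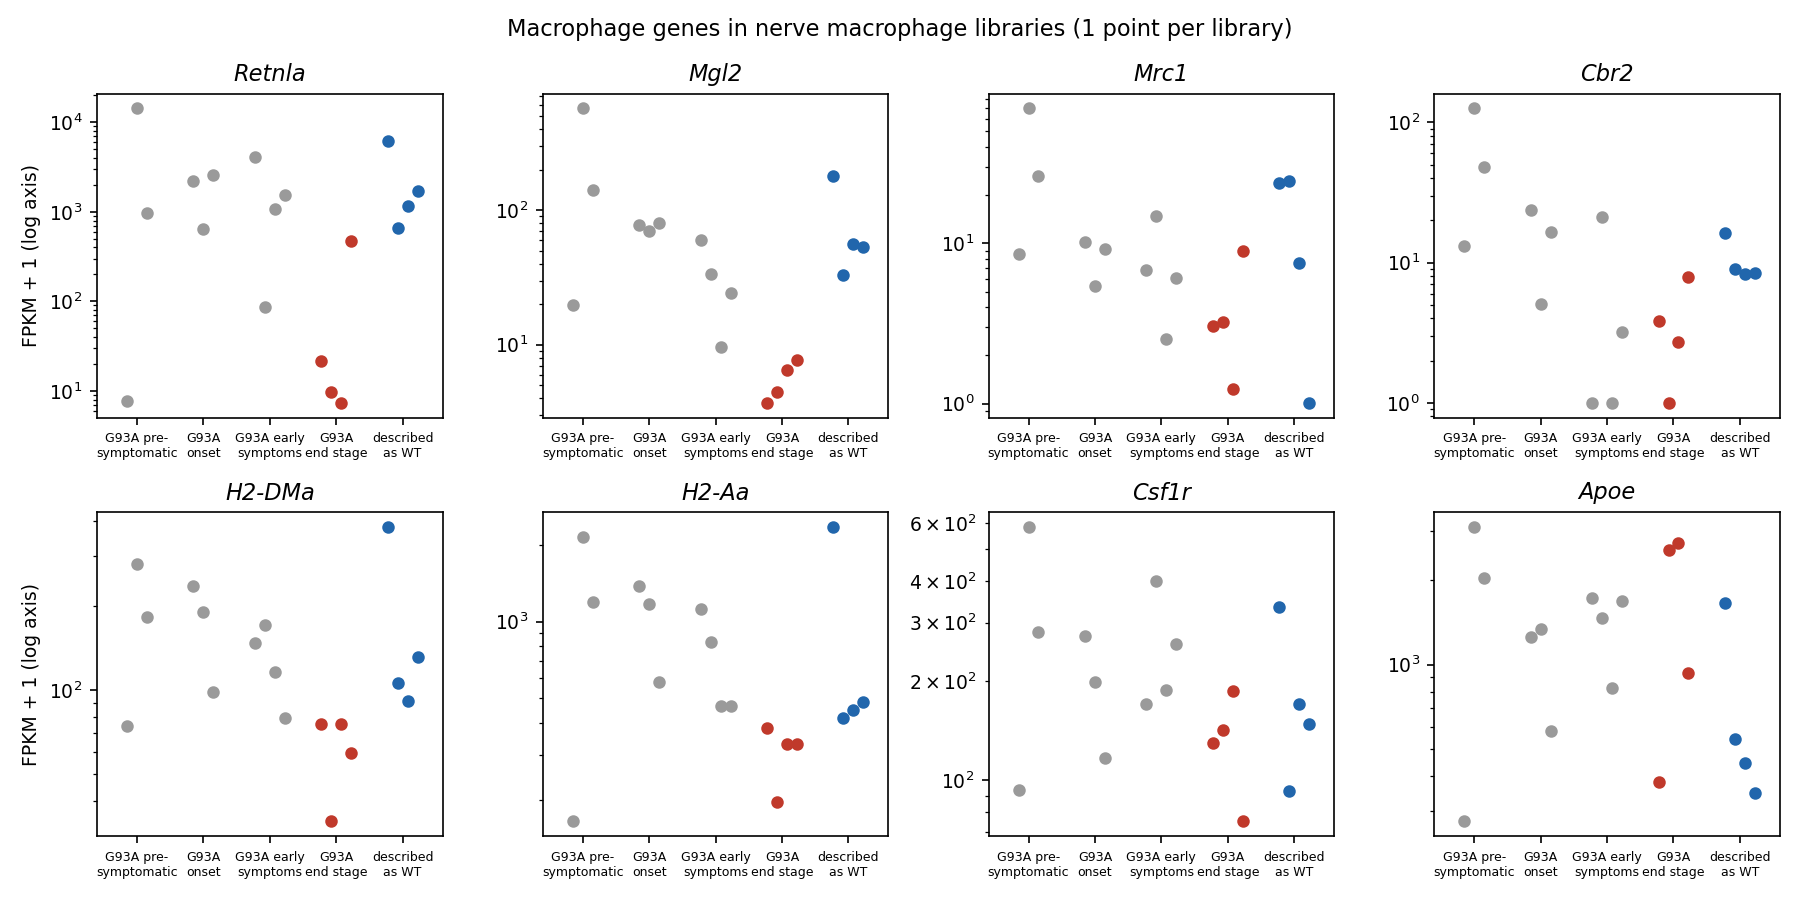
FPKM + 1 on a log axis for 8 macrophage genes in the 5 groups of nerve macrophage libraries, 1 point per library. Mgl2 at end stage lies between 2.70 and 6.69 FPKM, below every other library, while Csf1r and Apoe overlap across the groups.

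MHC class II genes showed a like pattern with overlap. Of 13 tested, 10 were lower, the median was -0.78 and none passed. H2-DMa, which loads peptides onto class II molecules, was at 74.6, 33.0, 74.5 and 58.4 FPKM in G93A and at 382, 105, 90.4 and 129.8 FPKM in the controls (-1.35 ± 0.44, adjusted p = 0.571). H2-Aa, a class II chain, was at 383, 196, 332 and 329 FPKM against 2355, 419, 449 and 482 FPKM (-1.17 ± 0.62). In both genes the groups did not overlap (2 of 13, where the background was 2.27% lower), and described-as-WT replicate 1 was far above the other 3 controls. Cd74, the invariant chain that guides class II molecules, was at 1969, 1370.2, 1588 and 1983 FPKM against 10927, 1817, 2782 and 2434 FPKM, which overlap (-0.996 ± 0.59, adjusted p = 0.805). Without described-as-WT replicate 1, the list's median was -0.42 with 9 of 13 lower. It was -0.88 with 12 of 13 lower without both libraries with Y-linked transcripts, and -1.94 with 13 of 13 lower under the term for sample number.

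The macrophage identity markers did not move together. Of 13 tested, 7 were higher and 6 lower, with a median of 0.11 and none passed. The median was -0.39 without described-as-WT replicate 2, -0.35 without both libraries with Y-linked transcripts and -0.69 under the term for sample number. Csf1r differed by -0.40 ± 0.47 (adjusted p = 0.928). Adgre1, the F4/80 antigen, was at 29.7, 49.4, 44.8 and 32.6 FPKM in G93A and 57.4, 21.5, 49.9 and 44.8 FPKM in the controls (-0.09 ± 0.49). Cx3cr1, the fractalkine receptor, was at 29.5, 32.9, 66.8 and 0.06 FPKM against 158, 29.9, 20.8 and 21.9 FPKM (-1.26 ± 0.97). Both overlapped. The C1q chains C1qa, C1qb and C1qc, which start the complement cascade, were at 42.4 to 989 FPKM in G93A and 22.7 to 1067 FPKM in the controls, with no separation.

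Disease-associated phagocyte genes, which microglia switch on through TREM2 as they take up lipid debris, were higher in 18 of 24 tested, with a median of 0.45, where 48.3% of all genes were higher. None passed and in none did the groups separate. Without both libraries with Y-linked transcripts, 13 of 24 were higher and the median was 0.07. Without G93A replicate 2 the median was 0.12, and under the term for sample number it was -0.051 with 10 of 24 higher. Apoe, the lipid carrier, was at 379.7, 2549.8, 2711 and 932 FPKM in G93A and 1657, 542, 446 and 348 FPKM in the controls (1.03 ± 0.67, adjusted p = 0.824). Spp1, osteopontin, was at 22.4, 182, 603 and 16.98 against 61.6, 8.91, 23.0 and 35.3 FPKM (1.61 ± 1.07). Replicates 2 and 3 carried the high G93A values of both. Gpnmb, a glycoprotein of lipid-loaded phagocytes, was at 0, 349, 36.7 and 13.5 against 10.5, 3.13, 0 and 2.12 FPKM (2.58 ± 1.29, adjusted p = 0.780). Trem2, the lipid receptor itself, was at 0, 91.5, 131.95 and 13.2 FPKM against 78.4, 16.9, 2.33 and 13.3 FPKM, with no direction that held between settings. Igf1, a trophic factor, stayed at 3.69 FPKM or less in all 8 libraries. Ctsl and Ctsd, lysosomal proteases, had differences of 1.98 ± 0.72 and 1.07 ± 0.42 (adjusted p = 0.614 and 0.666), and G93A replicates 2 and 3 were again the highest, at 93.1 and 171 FPKM for Ctsl.

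Inflammatory genes leaned lower. Of 18 cytokine and NF-kB target genes tested, 13 were lower, with a median of -0.47 and none passed. Without both libraries with Y-linked transcripts 11 were lower and the median was -0.52. Nfkb2, an NF-kB subunit, was the 1 member of 18 whose groups did not overlap, where the background was 2.27% lower, at 5.98 to 13.1 FPKM in G93A and 18.5 to 28.8 FPKM in the controls (-1.27 ± 0.38, adjusted p = 0.513). Il1b, the cytokine that Il1r2 binds, was at 179, 239, 135.88 and 17.8 against 193, 593, 244 and 154 FPKM (-1.33 ± 0.58, adjusted p = 0.743). Tnf was at 4.09 to 5.25 FPKM in G93A and at 8.56, 28.2, 0 and 8.37 FPKM in the controls, and its sign changed with the pseudocount. Ccl2, the chemokine that draws monocytes, was listed at 0.01, 0, 0 and 0 FPKM in G93A and at 5.84, 0, 3.90 and 4.59 FPKM in the controls. Ccl7, a neighbour of Ccl2 with the same receptor, was listed at 0 in all 4 G93A libraries and at 24.99, 0, 3.79 and 13.1 FPKM in the controls. A listed 0 in a table without counts can be a failed estimate.

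Among stress and oxidant genes, Cybb, the catalytic chain of the phagocyte NADPH oxidase, was at 491, 320.4, 527 and 247 FPKM in G93A and 587, 585, 490.3 and 463 FPKM in the controls (-0.48 ± 0.22, adjusted p = 0.747). Hmox1, which breaks down heme, was at 13.3 to 65.3 against 8.15 to 52.6 FPKM, and its sign changed between settings. Of 19 integrin and actin linker genes tested, 16 were lower with a median of -0.31, and none passed. Without G93A replicate 4 the median was -0.18, without both libraries with Y-linked transcripts it was -0.41 and under the term for sample number -0.59. Among them Itgam, the CD11b chain used to capture the cells, was at 169, 220.1, 240.01 and 97.4 FPKM in G93A and 298, 378, 248 and 213 FPKM in the controls, which overlap (-0.69 ± 0.25, adjusted p = 0.623).

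Housekeeping programmes leaned higher in G93A with small differences. Oxidative phosphorylation genes were higher in 20 of 23 tested (median 0.26), cytosolic ribosomal protein genes in 18 of 21 (median 0.39) and cell cycle genes in 19 of 21 (median 0.43), none passed, and in none of the 3 lists did any gene separate the groups. Replicate 4 held the highest G93A level of every cell cycle gene except Bub1, for example 35.3 FPKM of the proliferation marker Mki67 against 3.78 to 16.5 in the other 3. The erythroid markers were higher in 9 of 9 tested (median 0.72), and their summed level in that library was 165700 FPKM, where the libraries described as WT held 3432 to 44710 FPKM. Without replicate 4 the ribosomal median was 0.14 with 14 of 21 higher, without described-as-WT replicate 2 it was 0.12 with 14 of 21 higher, and the oxidative phosphorylation median was 0.24 and 0.13 without the same libraries. Without replicate 4 the cell cycle median was 0.060 with 12 of 21 higher, and without described-as-WT replicate 1 it was 0.18. The erythroid median was -0.22 without replicate 4, with 2 of 9 higher, 0.028 without described-as-WT replicate 2 and 0.042 under the term for sample number. With quality weights the medians were 0.13 for oxidative phosphorylation, 0.22 for ribosomal, 0.25 for cell cycle and -0.44 for erythroid genes. Without both libraries with Y-linked transcripts they were 0.19, 0.18, 0.55 and 0.73. Under the term for sample number the ribosomal median was 0.16 and the cell cycle median 1.00. The part of erythroid RNA in these lists beyond that was not tested.

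Among markers of other cells, those of fibroblasts were lower in G93A. Of 12 fibroblast markers 8 were tested, all 8 were lower, the median was -1.25 and none passed. The size of that median rested on the scale and the filter on low values. It was -0.33 with no filter (8 lower and 3 higher), -0.39 at a mean of at least 5 FPKM, -2.76 at a pseudocount of 0.1, -2.12 under the term for sample number and -1.42 without both libraries with Y-linked transcripts. Dcn, the collagen-binding proteoglycan decorin, was at 44.6, 6.73, 1.77 and 1.73 FPKM in G93A and 59.2, 37.2, 70.9 and 47.1 FPKM in the controls. Lum, a related proteoglycan, was listed at 0 in all G93A libraries and at 11.8, 0, 11.5 and 8.90 FPKM in the controls, and Col1a2, a collagen chain, was at 0.34 FPKM or less against 1.39 to 6.06 FPKM. Of the list, Dpt was at 0 in all 8 libraries, and its summed level was 208 to 569 FPKM in G93A and 493 to 728 FPKM in the controls. Myelinating Schwann cell markers were lower in 8 of 11 tested (median -0.37), but the median was 0.29 without described-as-WT replicate 1. Their summed level was 40.96 to 2540.0 FPKM in G93A and 89.6 to 1233 FPKM in the controls. Monocyte markers were lower in 9 of 13 (median -0.45). Their summed level was higher in every G93A library, at 7751 to 13290 FPKM, than in every control, at 5098 to 7328 FPKM. That sum includes Chil3, described above, which alone was at 6654 to 12014 FPKM in G93A and 3469 to 5424 FPKM in the controls. The sum without Chil3 was not computed, so a separation is not shown for the other markers. T and NK cell markers were lower in 8 of 11 (median -0.57), while B cell markers were higher in 6 of 8 (median 0.82, and 0.22 without G93A replicate 4). Without both libraries with Y-linked transcripts the medians were -0.49 for Schwann cell, -0.64 for monocyte, -0.90 for T and NK cell and 1.63 for B cell markers.

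**Figure D5:**
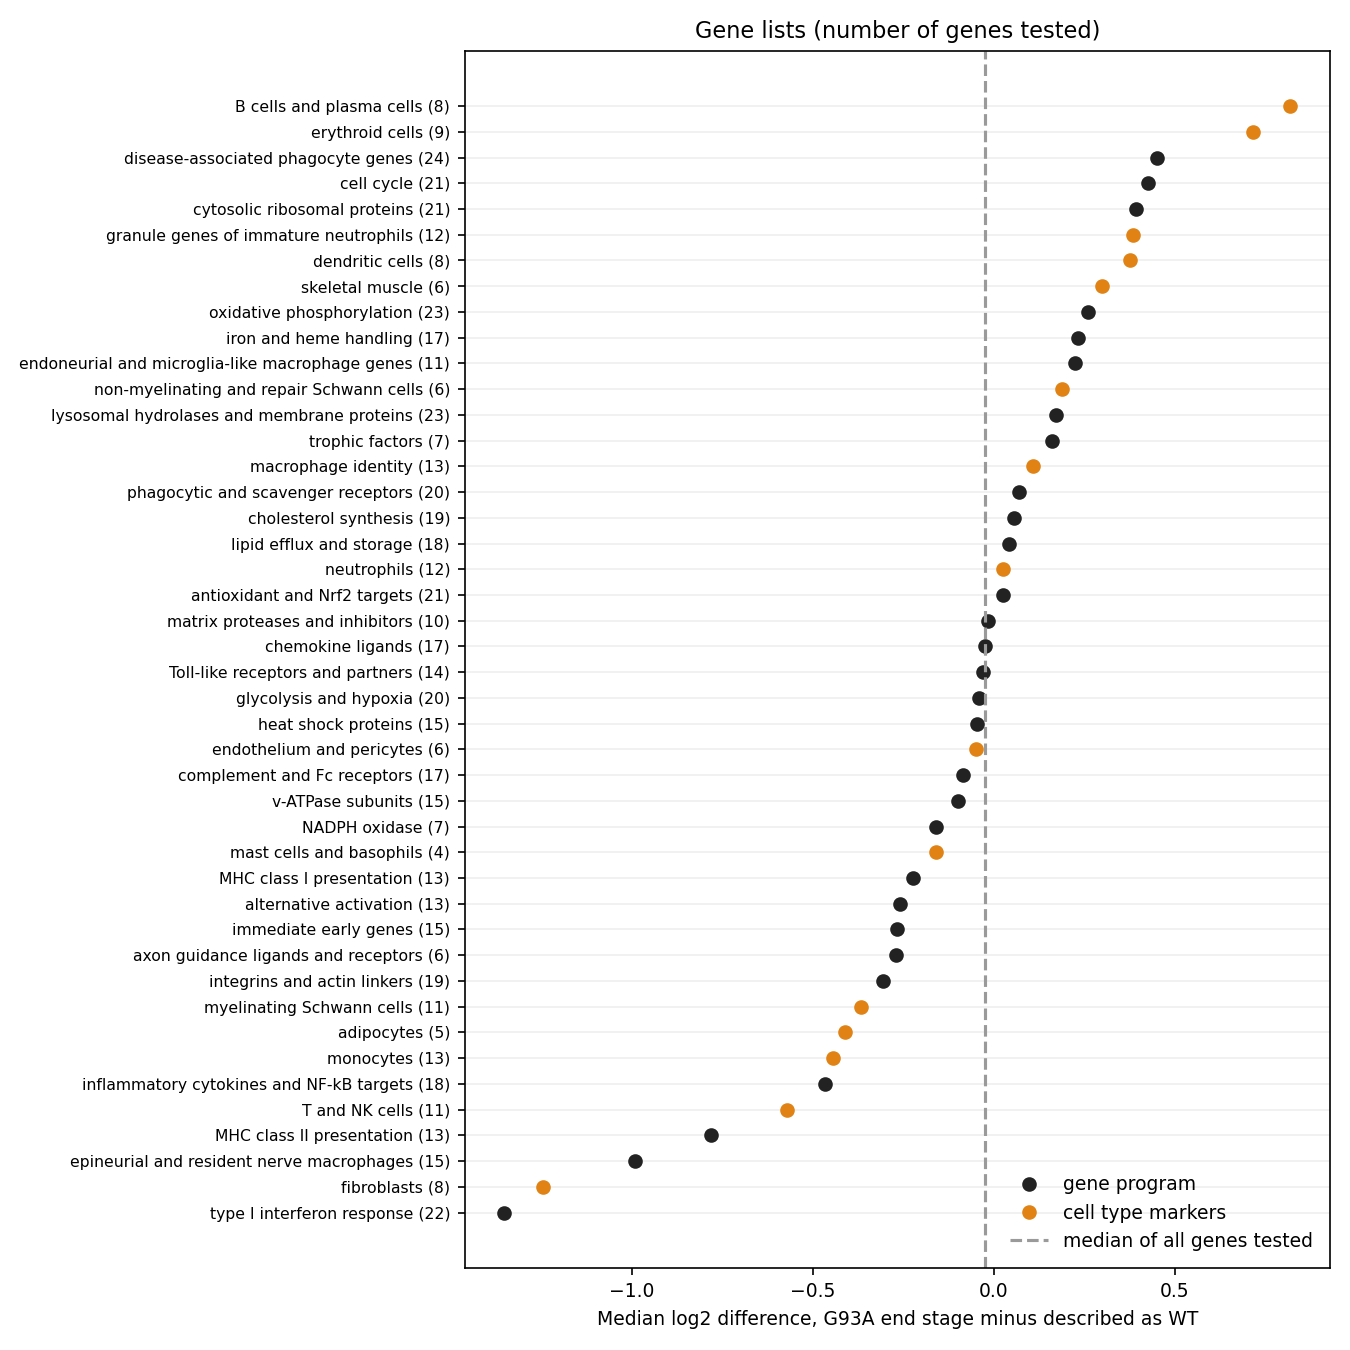
Median log2 difference of each of the 44 gene lists, with the number of genes tested in brackets and cell type marker lists in orange. The interferon list is lowest at -1.35, the dashed line marks the median of all genes tested, and no gene of any list passed the test.

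To ask whether the nerve difference was unlike that of microglia, the G93A minus control difference at end stage was tested between the 2 cell preparations in 1 fit of 51 libraries. Here 82 of 11773 genes passed (0.697%), with 34 higher (0.289%) and 48 lower (0.408%) in nerve macrophages relative to microglia. Without described-as-WT replicate 3, 72 were higher and 62 lower, and without the 3 libraries with Y-linked transcripts 18 were higher and 31 lower. With B6 microglia as the control 16.3% passed, 1147 higher and 768 lower. Of the 78 that were tested in microglia alone, 54 had also passed there. Sept11 rose in microglia by 0.91 ± 0.17 (adjusted p = 0.00194) and was -2.01 in nerve macrophages, a difference of -2.92 ± 0.45 (adjusted p = 0.000807) that passed in all 14 alternatives. Cbr4 fell by 0.59 on the log2 scale in microglia (adjusted p = 0.0179) and differed by 3.18 ± 0.58 (adjusted p = 0.00488), which was lost under the replicate block. Mrpl2 differed by 1.61 ± 0.31 (adjusted p = 0.00845) and held in 12 of 14 alternatives. Sept11, Cbr4 and Mrpl2 were named for a small p in the nerve difference, which is part of this test. The fit and its alternatives share 1 estimate of spread per gene across both preparations. The SEs here, 0.45, 0.58 and 0.31, were below those of the nerve differences alone, 0.48, 0.68 and 0.35. The adjusted p values can thus be too small where nerve libraries vary more than microglia.

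A few interferon genes differed between the preparations in the same fit. Usp18 differed by -3.53 ± 0.75 (adjusted p = 0.0155), Ifit3b by -2.94 ± 0.70 (adjusted p = 0.0328) and Dhx58 by -2.48 ± 0.62 (adjusted p = 0.0404). These genes too were named for a small p in the nerve difference, and the limit of the shared spread applies to them. Of the 22 list members tested, Usp18 alone passed, where 0.408% of all genes passed as lower. The list's median was -1.71 beside 0.15 for all genes. In microglia by themselves no member passed and the median was 0.33. The Usp18 call was lost in the fit of only 16 libraries and under the replicate block. The Ifit3b and Dhx58 calls held in 8 and 6 of 14 alternatives and were lost, among others, without G93A replicate 2 or without G93A replicate 4. The control groups behind this test carry different labels, since WT in microglia is the wildtype human SOD1 transgene in every label.

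Disease-associated and cholesterol genes had other medians in microglia. There 11 of 24 disease-associated genes rose, where 2.81% of all genes did, with a median of 1.75. In nerve macrophages 0 of 24 passed, as did 0 of all 10260 genes tested, and the median was 0.45. Of the 24, Igf1 alone passed the test of the difference (-3.19 ± 0.80, adjusted p = 0.0415, held in 7 of 14 alternatives). Over all genes 0.408% passed in that direction. Microglial Igf1 rose by 3.75 ± 0.55 (adjusted p = 0.000131), and its nerve difference was 0.56 ± 0.64. Cholesterol synthesis genes fell in microglia in 10 of 19, where 4.19% of all genes fell, with a median of -0.94, and had a median of 0.06 in the nerve. Of the 19, the enzymes Msmo1 and Fdft1 passed the test of the difference at 1.46 ± 0.32 and 2.71 ± 0.64 (adjusted p = 0.0186 and 0.0294). Over all genes 0.289% passed as higher.

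A separate set of grafted mice offers other animals with a like contrast. These G93A mice received G93A or WT hSOD1 bone marrow at onset, and their nerve macrophages were taken at end stage, 3 libraries per group, so host and stage were shared and the donor marrow differed. The sources used here do not give the share of host macrophages left in these nerves. No gene passed in limma (0 of 10299 genes, 0%, smallest adjusted p 0.151), while 1087 (10.6%) were higher and 501 (4.86%) lower at an unadjusted p under 0.05. Leaving out WT marrow replicate 2 gave 278 calls, so that count rests on 1 library. Retnla was at 4.48, 2.60 and 14.3 FPKM with G93A marrow and at 7279, 435 and 3335.5 FPKM with WT marrow (-8.36 ± 2.60, adjusted p = 0.180), and the groups did not overlap, as in the mice without grafts. Mgl2 was at 2.15 to 24.2 against 19.4 to 31.1 FPKM, which overlap (-1.21 ± 1.01).

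The interferon genes were mostly higher there, unlike in the mice without grafts, and that difference was not tested. In grafted mice 6 of 22 were lower, where 4484 of all 10299 genes were, their median was 0.25 beside 0.15 for all genes, and Usp18 was at 2.24 to 8.25 FPKM with G93A marrow and 0.02 to 8.81 FPKM with WT marrow. Rabac1 was at 152 to 191 FPKM against 80.2 to 115.5 FPKM (0.76 ± 0.27, adjusted p = 0.226), and Cd48 at 21.7 to 72.1 against 57.0 to 197 FPKM (-1.44 ± 0.75, adjusted p = 0.376). Il1r2 ran from 153 to 1675 FPKM against 102.6 to 1291 FPKM (0.61 ± 0.98), with overlap. Of the 20 genes of both directions, 12 (60%) had the same sign in grafted mice, where 49.15% of 9810 genes tested in both did.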

How the data were processed

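RNA of CD11b-captured cells was sequenced, and the authors deposited FPKM per feature in 1 table for 51 non-grafted and 1 for 23 grafted libraries, per the file headers. The build was mm10, and R 3.2.5, DESeq2, SAMtools, Picard and FastQC were used in a role not stated, per the submitters' processing notes. The sources used here do not give the aligner, the counter or the use of strand. Of 58976 features, the 23297 with a symbol were used. Among the non-grafted features, 27 symbols that a spreadsheet had turned into dates were restored by feature ID, and 361 features with several symbols were matched to no list. Low values share no common step, so read depth is unknown and no counting interval is given.

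On log2(FPKM + 1), group means were fitted and compared by limma 3.58.1 (R 4.3.3; eBayes, trend on the mean), for genes with a mean of at least 1 FPKM, at a Benjamini-Hochberg adjusted p under 0.05. This scale understates changes of low genes. The nerve fit held 18 libraries, the comparison with microglia 51 and the grafted fit 11. The code was tested on simulated data. Alternatives were another pseudocount, other filters and scalings, fewer libraries, a replicate block, terms for sample number or cell scores, quality weights and leaving out each library. Leaving out libraries with Y-linked transcripts, or grafted libraries in turn, was chosen after seeing the data.

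Genes named are the 10 of each direction with the smallest unadjusted p among those without overlap whose higher group averaged 5 FPKM or more, plus 20 fixed genes, and members of 44 lists. A few members of these are not reported here by name. Other list members named for their values were chosen after these were seen. Members and lists were chosen with earlier results of these data known.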

Additional observations from a re-analysis of the deposited data

Results flagged for a closer look

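Single libraries set apart from the other 3 of their group by Dixon's criterion for 4 samples were found for 3 of the 40 named genes. Both groups were checked, and chance exceeds the criterion in about 1 of 20 groups. Il1r2 was at 780.36 FPKM in G93A replicate 4, Cbr4 at 2.33 FPKM in described-as-WT replicate 4 and Ccl2 at 0.01 FPKM in G93A replicate 1. The other G93A libraries listed Ccl2 at 0, where any value above 0 meets the criterion, so its flag shows no real distance. The sum of FPKM, 986659, also set G93A replicate 4 apart.

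The Y-linked genes did so in 1 library of each group. Eif2s3y was at 54.92 FPKM in G93A replicate 3 and at 63.7 FPKM in described-as-WT replicate 2. In the same 2 libraries Ddx3y was at 14.68 and 8 FPKM, Uty at 1.8 and 5.6 FPKM and Kdm5d at 3.1 and 0.02 FPKM. All 4 genes were at 0 in the other libraries of both groups, so even 0.02 FPKM met the criterion. Without both libraries, 0 genes were called by limma (634 at an unadjusted p under 0.05), and the differences of the 20 genes of the naming rule, whose direction that rule fixes, were 0.695 to 1.21 times those with all 8 libraries.

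The difference between nerve macrophages and microglia passed limma's interaction test for 7 of the 40 named genes, where 0.697% of all genes tested passed. On the log2 scale it was 1.61 for Mrpl2, 3.18 for Cbr4, -2.48 for Dhx58, -2.94 for Ifit3b, -3.53 for Usp18, -2.92 for Sept11 and -3.19 for Igf1. All but Igf1, a fixed gene, were named for a small p in the nerve difference. That difference is part of the interaction test, so their passing is not separate from how they were chosen.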

How the results depend on the processing

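In nerve macrophages the count of genes called was 0, against 1 with no filter on low values, 8 with neutrophil and Schwann cell scores, 3 with quality weights and 0 in every fit without 1 library. For the difference from microglia 0.697% of genes tested were called (82 genes), against 0.382% at a pseudocount of 0.1, 0.196% with only 16 libraries, 16.3% with B6 microglia as control (1147 genes higher, 768 lower), 0.116% (13 genes) under the replicate block, 0.414% without the 3 libraries with Y-linked transcripts, and 0.534% to 1.14% without 1 library, the highest without described-as-WT replicate 3 (72 genes higher, 62 lower). In grafted mice the count was 0, against 1 under the replicate block (Retnla, adjusted p = 0.000449) and 0 to 278 without 1 library, the highest without WT marrow replicate 2. Same-numbered libraries did not deviate together (r from -0.08 to 0.05), so the numbers pair no samples, and with the replicate block 0 genes were called in nerve macrophages. The cause of these shifts was not tested.

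Of 40 named genes 10 changed sign somewhere (24 of 756 values). The naming rule fixes the sign of the 20 chosen by p when a library is left out. With the term for sample number Apoe was -0.14, Trem2 -1.01, Igf1 -0.0045 and Hmox1 -0.54. With cell scores Adgre1 was 0.18 and S100a8 -0.016. With quality weights Tnf was 0.07 and Hba-a1 -0.52. At a pseudocount of 0.1 Trem2 was -0.36 and Tnf 0.33. Without G93A replicate 4 Sod1 was -0.080, Cx3cr1 0.0595, Hmox1 -0.14 and Hba-a1 -0.020. Leaving out another library gave Adgre1 0.03, 0.070 and 0.0041, Trem2 -0.39, -0.56 and -0.42, Tnf 0.34 and Hmox1 -0.27. The other end of the range over single libraries left out was 0.49 for Sod1, -1.94 for Cx3cr1, 1.79 for Trem2, -1.28 for Tnf, 0.60 for Hmox1 and 1.69 for Hba-a1. Without the libraries with Y-linked transcripts Trem2 was -0.51 and Tnf 0.40. Of 44 list medians 11 moved beyond their spread in some alternative.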

Other observations

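Fkbp5 and Glul, both known targets of glucocorticoids, were chosen after their values were seen. Their libraries did not overlap, and neither passed limma's test. Fkbp5 had a mean of 48.2 FPKM in G93A and 15.9 FPKM in the libraries described as WT (log2 difference 1.49, adjusted p = 0.430), and Glul had means of 65.6 and 22.7 FPKM (log2 difference 1.34). Tsc22d3, another such target, had a log2 difference of 0.03.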
